A study of Mus musculus with 7 samples.

Results

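The genes described here encode subunits of RNA polymerases I, II and III and general transcription factors that place these enzymes at promoters. They were taken by symbol as the protein-coding genes that start with Polr1, Polr2, Polr3, Gtf2 or Gtf3, or with Taf and a number, together with Tbp, Tbpl1 and Tbpl2. Polr2a was left out by the same rule. This gave 77 genes, the members below, of the 21887 protein-coding genes in the annotation. A gene was given a gene-end peak where the midpoint of a peak lay within 1 kb of either end of the gene, and a nearby peak where any base of a peak lay inside the gene or within 10 kb of it. The number of genes with a gene-end peak was 10 for Oct1 in embryonic stem cells (ESCs), 13 for Oct4 in ESCs, 14 for Oct1 at day 3 of mesodermal differentiation and 44 for Oct1 at day 6.

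RNA polymerase I transcribes the large ribosomal RNA precursor, RNA polymerase II transcribes messenger RNAs and most small nuclear RNAs, and RNA polymerase III transcribes transfer RNAs and 5S ribosomal RNA. Each needs general factors. TBP, a protein of all these systems, binds DNA with different partners, which are the TAF proteins of TFIID for polymerase II, those of SL1 for polymerase I, and Brf1 and Bdp1 in TFIIIB for polymerase III. TFIIA, TFIIB, TFIIE, TFIIF and TFIIH complete the polymerase II assembly, and TFIIIA and TFIIIC place TFIIIB, which recruits polymerase III. Oct1 (gene Pou2f1) is a widely expressed POU-domain factor that binds the octamer sequence ATGCAAAT and is known for its part in small nuclear RNA promoters, where it works with the SNAPc complex. Oct4 (gene Pou5f1) is its relative in pluripotent cells.

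The series measured binding by chromatin immunoprecipitation and sequencing (ChIP-seq) in 7 samples of mouse cells, all of the parental genotype, and its title concerns Oct1 and Smad factors in mesodermal specification. The 4 groups used here were undifferentiated ESCs with an Oct1 antibody (NBP2-21584), undifferentiated ESCs with an Oct4 antibody (sc-5279), and cells differentiated towards mesoderm for 3 days or 6 days with the same Oct1 antibody. Differentiation used Bmp4 for 2 days, followed by Rspo3 and the BMP receptor inhibitor LDN-193189 for 4 days. The labels give this full schedule for both differentiated groups, although cells at day 3 could not have completed it. The remaining 3 samples were inputs, which were not analysed here, and the name of the ESC line is not given in the sources used here. Each group held 1 library, so no value below has a replicate error, no test between groups was possible, and the lists record binding, not RNA.

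The authors' lists held 17709 peaks for ESC Oct1, 22817 for ESC Oct4, 4867 for day 3 and 7758 for day 6. Each peak carried a score without a unit. The score is the authors' own value and was used only to rank peaks within a list. A score percentile here is the share of a list's peaks that a peak outranks, with ties shared equally. Where a gene had more than 1 gene-end peak the highest was taken.

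In ESCs, 10 of the 77 genes (13.0%) had an Oct1 gene-end peak, beside 8.52% of all protein-coding genes, and 13 (16.9%) had an Oct4 gene-end peak, beside 8.91%. At day 3 the share was 18.2%, beside 14.0% of all genes. At day 6 it was 57.1%, beside 29.4%. The day 6 list thus reached 44 of these genes while holding fewer peaks than either ESC list, but more of its peaks lay at gene ends. Over all genes, 5564 of the 7758 day 6 peaks were gene-end peaks. The same count was 1711 of 17709 for ESC Oct1 and 1849 of 22817 for ESC Oct4. Counted within 10 kb, the number of genes was 28 in the ESC Oct1 list (36.4%, beside 35.2% of all genes) and 35 in the ESC Oct4 list (45.5%, beside 40.2%). It was 27 at day 3 (35.1%, beside 24.6%) and 56 at day 6 (72.7%, beside 41.5%). With every list shortened to its 4867 highest-scoring peaks, the ESC Oct1 gene-end share was 3.90%, below the 4.31% of all genes, and the day 6 share was 45.5%, beside 21.3%. With the higher-scoring 50% of each list, the day 3 gene-end share was 9.09%, beside 9.17%. Within 10 kb that setting gave 18.2%, beside 24.3%, for ESC Oct1 and 14.3%, beside 15.0%, at day 3. ESC Oct4 (31.2%, beside 26.8%) and day 6 (40.3%, beside 25.0%) stayed above all genes. Within 10 kb at equal length it was 13.0%, beside 16.3%, for ESC Oct1 and 14.3%, beside 14.7%, for ESC Oct4. Day 6 stayed above there too (55.8%, beside 30.2%). The members were of ordinary size, with a median gene length of 17035 bp against 17169 bp for all protein-coding genes.

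**Figure D1:**
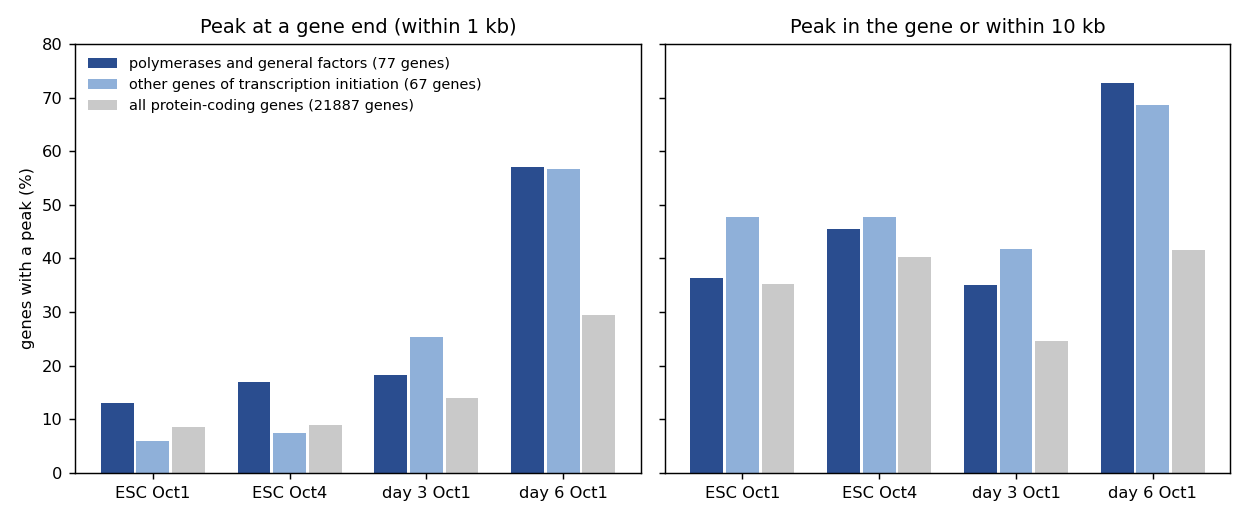
Percent of genes (vertical axis) with a peak at a gene end (left) or in the gene or within 10 kb (right) in each of the 4 lists, for the 77 polymerase and general factor genes, 67 other genes of transcription initiation and all 21887 protein-coding genes. The members reach 57.1% at gene ends at day 6, against 29.4% of all genes. Each bar is a count from 1 library, so there are no error bars.

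Of the 77 genes, 49 (63.6%) had a gene-end peak in at least 1 list, beside 38.0% of all protein-coding genes. The most frequent pattern was a peak in the day 6 list alone, found at 22 genes (28.6%, beside 15.3%), followed by day 3 with day 6 at 10 genes (13.0%, beside 9.29%). Polr3b and Gtf3c2 had a gene-end peak in all 4 lists (beside 1.09% of all genes), and both belong to the RNA polymerase III system. In addition, 10 genes had a nearby peak but none at a gene end, among them Gtf2i, Gtf2ird2, Gtf3c5, Polr1b, Taf1, Taf10 and Tbpl1 (13.0%, beside 25.5%). The day 6 peak of Taf1 (rank 5666) lay 90 bp from an annotated start inside the gene, 5253 bp from the nearer end. No peak lay in or within 10 kb of 18 genes (23.4%, beside 36.5%) in any list, namely Gtf2a1l, Gtf2a2, Gtf2b, Gtf2h2, Gtf3c3, Gtf3c6, Polr2m, Polr3k, Taf1b, Taf1c, Taf1d, Taf2, Taf3, Taf7l, Taf7l2, Taf9b, Tbp and Tbpl2.

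**Figure D2:**
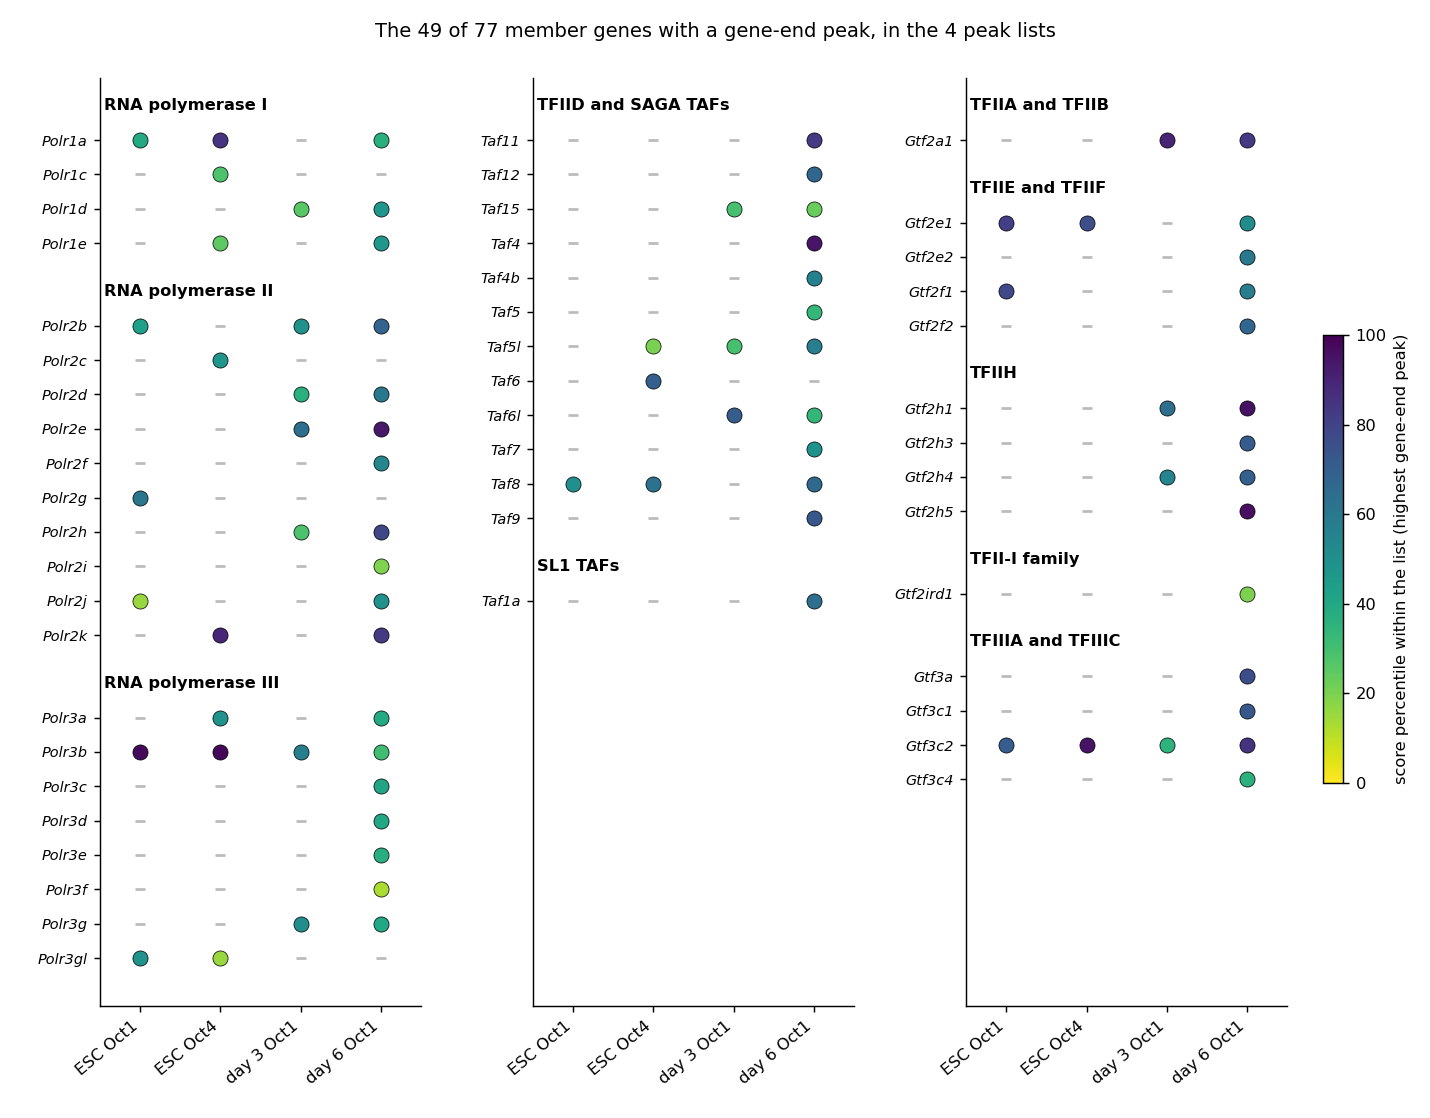
Gene-end peaks of the 49 of 77 genes that had one (rows, by complex) in the 4 lists (columns). A filled circle is a gene-end peak, shaded by the score percentile of the gene's highest such peak within its list, and a dash is no gene-end peak. The day 6 column is the fullest, with 44 circles, and Polr3b and Gtf3c2 are filled in every column.

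The promoters of the 4 genes whose ESC Oct1 gene-end peak ranked highest among those bound again later are printed to show the sequence at genes that had an Oct1 peak in ESCs and again at day 3 or day 6. That of Gtf2h5, the member with the highest rank at day 6, is added as a promoter bound at day 6 alone. Each runs from 250 bases before to 50 bases after the annotated start, 5′ to 3′ along the gene (RefSeq, GRCm38.p6). Capitals mark any of the octamer ATGCAAAT, the GC box core GGGCGG, the CCAAT box, the ETS-type core CCGGAA and the TATA box letters TATAAA, on either strand. Positions are chr10:84622048-84622347 (plus strand) for Polr3b, chr16:37539740-37540039 (minus) for Gtf2e1, chr17:57011239-57011538 (minus) for Gtf2f1, chr5:31180095-31180394 (minus) for Gtf3c2 and chr17:6079578-6079877 (plus) for Gtf2h5.
Polr3b: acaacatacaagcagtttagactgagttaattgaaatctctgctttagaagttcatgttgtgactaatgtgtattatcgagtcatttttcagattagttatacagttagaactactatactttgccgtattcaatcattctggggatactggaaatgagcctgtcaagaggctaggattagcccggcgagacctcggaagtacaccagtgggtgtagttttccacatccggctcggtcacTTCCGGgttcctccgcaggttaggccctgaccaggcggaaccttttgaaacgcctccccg
Gtf2e1: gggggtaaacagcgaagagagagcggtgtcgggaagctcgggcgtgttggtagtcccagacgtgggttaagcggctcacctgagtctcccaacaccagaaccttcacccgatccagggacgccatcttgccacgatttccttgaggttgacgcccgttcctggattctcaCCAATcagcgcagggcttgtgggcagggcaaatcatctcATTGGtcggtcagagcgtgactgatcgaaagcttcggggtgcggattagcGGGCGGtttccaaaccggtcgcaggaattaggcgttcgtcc
Gtf2f1: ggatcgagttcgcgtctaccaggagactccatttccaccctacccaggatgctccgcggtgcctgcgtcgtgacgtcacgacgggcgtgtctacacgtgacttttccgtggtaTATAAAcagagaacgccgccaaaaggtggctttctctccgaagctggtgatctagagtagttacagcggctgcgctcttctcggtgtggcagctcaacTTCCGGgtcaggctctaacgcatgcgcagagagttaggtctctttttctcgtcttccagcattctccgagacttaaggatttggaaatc
Gtf3c2: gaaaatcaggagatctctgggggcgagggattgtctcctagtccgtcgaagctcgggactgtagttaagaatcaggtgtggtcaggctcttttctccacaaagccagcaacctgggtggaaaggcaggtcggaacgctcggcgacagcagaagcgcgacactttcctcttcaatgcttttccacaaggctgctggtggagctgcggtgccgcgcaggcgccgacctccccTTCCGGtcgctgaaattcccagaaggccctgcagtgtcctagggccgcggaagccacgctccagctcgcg
Gtf2h5: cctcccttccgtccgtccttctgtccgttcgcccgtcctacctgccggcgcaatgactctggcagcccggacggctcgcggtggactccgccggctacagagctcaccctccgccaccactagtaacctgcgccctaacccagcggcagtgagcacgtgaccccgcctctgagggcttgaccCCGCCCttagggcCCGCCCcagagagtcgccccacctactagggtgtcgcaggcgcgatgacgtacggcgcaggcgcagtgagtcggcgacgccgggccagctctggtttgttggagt
None of them holds the octamer letters. Polr3b, Gtf2f1 and Gtf3c2 hold CCGGAA once each, Gtf2f1 also holds TATAAA once, Gtf2e1 holds CCAAT at 2 places and GGGCGG once, and Gtf2h5 holds GGGCGG at 2 places. In ESCs the Oct1 peak covered the whole window of Polr3b, Gtf2e1 and Gtf2f1 but none of that of Gtf3c2, whose ESC peak lay further into the gene.

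By complex, the counts below are of few genes each, and over all protein-coding genes 38.0% had a gene-end peak in some list and 29.4% at day 6. Complexes were assigned by symbol, so subunits shared by all the polymerases are counted with polymerase II. The polymerase I subunits Twistnb, Cd3eap and Znrd1 are not members under the rule. Among the genes starting Polr1, 4 of 5 had a gene-end peak in some list. Polr1a, the largest subunit, was bound at its start in 3 lists. The start peak ranked 12839 for ESC Oct1 and 3423 for ESC Oct4, and at day 6 it ranked 4907, with none at day 3. These start peaks were also within 1 kb of an end of the neighbour Ptcd3, and a second peak lay at the far end of Polr1a in both ESC lists, at rank 10287 for Oct1 and 8767 for Oct4. Polr1d, shared by polymerases I and III, had a peak at day 3 (rank 3601) and at day 6 (rank 4103). Polr1e had a peak for Oct4 in ESCs (rank 17172) and for Oct1 at day 6 (rank 4103), and Polr1c, also shared by polymerases I and III, had one for Oct4 alone, 970 bp from a gene end and 3154 bp from its start. At day 6 the bound genes starting Polr1 lay between percentiles 36.7 and 47.1.

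For RNA polymerase II, 10 of 12 genes had a gene-end peak, of which 8 were in the day 6 list. Polr2e and Polr2h, subunits shared by all the polymerases, were bound at both differentiation times. Polr2e ranked 1729 at day 3 and 514 at day 6 (score 1648, percentile 93.4). Polr2h ranked 3489 and 1660, at an end it shares with Clcn2. Polr2b, the second largest subunit, had its day 3 (rank 2461) and day 6 (rank 2462) peaks over its start next to Noa1, whereas its ESC Oct1 peak (rank 9903) lay 972 bp from the opposite end. Polr2d and Polr2g form the stalk of the enzyme and did not share lists. Polr2d was bound at day 3 (rank 3083) and day 6 (rank 3127), and Polr2g had an ESC Oct1 peak alone (rank 6975, percentile 60.6).

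The other polymerase II subunits with a gene-end peak were as follows. Polr2k, another shared subunit, had an Oct4 peak in ESCs at rank 2288 (percentile 89.6) and a day 6 Oct1 peak at rank 1281 (percentile 83.5), with no Oct1 gene-end peak in ESCs. Polr2j had its ESC Oct1 peak (rank 14748) at the far end, beside Lrwd1, and its day 6 peak (rank 3900) 60 bp from the start. Polr2c, which pairs with Polr2j in the core of the enzyme, had an Oct4 peak alone, 7396 bp from its start. Polr2f, highest of the polymerase II subunits bound at day 6 alone, ranked 3596, and Polr2i ranked 6268.

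RNA polymerase III held the highest gene-end rank of the members in both ESC lists. At Polr3b, the second largest subunit, the ESC Oct1 peak at chr10:84621771-84622790 scored 798 and ranked 465 (percentile 97.4), centred 18 bp before the annotated start. The ESC Oct4 peak there scored 463 and ranked 358 (percentile 98.4). Oct1 peaks followed at day 3 (score 229, rank 2077, percentile 57.1) and day 6 (score 307, rank 5388, percentile 30.5), both centred within 200 bp after the start. The 4 peaks overlap, so the site is shared by all lists. The lists differ in length and in an unknown threshold, and their scores are on no known common scale, so these places describe each list and show no change between them.

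Polr3g and Polr3gl, alternative forms of the same subunit, appeared in different lists. Polr3gl had ESC peaks for Oct1 (rank 9066) and Oct4 (rank 19222) and no later gene-end peak. Polr3g had none in ESCs and was bound at day 3 (rank 2376) and day 6 (rank 4662) at an end shared with Mblac2. The largest subunit, Polr3a, had an Oct4 peak in ESCs (rank 11699) and a day 6 Oct1 peak (rank 4708). Polr3c, Polr3d, Polr3e and Polr3f were in the day 6 list alone, led by Polr3c at rank 4559 (percentile 41.2). Polr3k had no peak within 10 kb.

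No TBP family gene had a gene-end peak in any list. Tbp itself and Tbpl2, the oocyte form, had none within 10 kb. Tbpl1, a relative of TBP that does not bind the TATA box, had a day 6 peak at rank 6242 that was 1215 bp from the gene's outer end, and thus outside the limit. That peak lay 4 bp from another annotated start of Tbpl1.

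Of the 20 TAF genes of TFIID and SAGA, 12 had a gene-end peak in some list. The count was 11 at day 6 (beside 29.4% of all genes), 3 at day 3 (beside 14.0%), 3 for ESC Oct4 (beside 8.91%) and 1 for ESC Oct1 (beside 8.52%), and a gene can be in several of these. Taf4, a scaffold of TFIID, led at day 6 with rank 418 (score 1761, percentile 94.6) and had no gene-end peak in the other lists. Taf11, Taf12, Taf4b, Taf5, Taf7 and Taf9 were likewise in the day 6 list alone, at percentiles from 33.2 for Taf5 to 82.8 for Taf11. Taf8, which pairs with Taf10 in TFIID, was bound at its far end in ESCs, by Oct1 (rank 8741) and Oct4 (rank 8563), and 60 bp from its start at day 6 (rank 2630). Taf6 had an Oct4 peak alone (rank 6596), 8280 bp from its start.

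The SAGA forms Taf5l and Taf6l and the RNA-binding protein Taf15 were bound by Oct1 at both differentiation times. Taf5l ranked 3420 at day 3 and 3272 at day 6, beside an end of Urb2, and its Oct4 peak in ESCs (rank 17958) lay at the other end. Taf15 ranked 3420 and 5982. Taf6l was the gene whose day 3 and day 6 peaks did not coincide. Its day 3 peak (rank 1389) lay 50 bp from its start, and its day 6 peak (rank 5131) lay at the other end beside Tmem179b. In SL1, 1 of 4 genes was bound, Taf1a, at day 6 alone (rank 2770).

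TFIIA and TFIIB had 1 bound gene of 4. Gtf2a1, the large TFIIA subunit, had the highest day 3 rank of the members, 482 (percentile 90.1), and rank 1298 at day 6 (percentile 83.2). All 4 TFIIE and TFIIF genes had a day 6 gene-end peak, beside 29.4% of all genes. Gtf2e1 and Gtf2f1, the large subunits of the factors that escort the polymerase and load TFIIH, were also bound by Oct1 in ESCs. Gtf2e1 ranked 3177 for ESC Oct1, 5346 for ESC Oct4 and 3734 at day 6, at an end it shares with Rabl3. Gtf2f1 ranked 3813 for ESC Oct1 and 3256 at day 6, without an Oct4 gene-end peak. The partners Gtf2e2 (rank 3100) and Gtf2f2 (rank 2573) were in the day 6 list alone.

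TFIIH opens promoter DNA and also serves nucleotide excision repair. Of its 5 genes here, 4 had a day 6 gene-end peak, beside 29.4% of all genes. None had one in ESCs, where the shares of all genes were 8.52% for Oct1 and 8.91% for Oct4. Gtf2h5, the smallest subunit, had the highest day 6 rank of all members, 302 (score 1989, percentile 96.1), with its peak at chr17:6079451-6080090, also within 1 kb of an end of Serac1. Gtf2h1 followed at rank 336 (score 1900, percentile 95.7), next to Hps5, after rank 1743 at day 3. Gtf2h3 ranked 2217 at day 6, beside an end of Eif2b1. The peaks of Gtf2h4 (rank 2210 at day 3 and 2335 at day 6) lay at its far end, over the end of Vars2 and 6178 bp from its own start at day 3. The TFIIH peaks at day 6 stood at percentiles of 69.9 to 96.1 of that list. All 4 were also within 1 kb of an end of another gene, and the 1 TFIIH gene that shares no end had no day 6 gene-end peak.

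The TFII-I genes encode related DNA-binding proteins that carry a general factor's name but act at particular promoters. Within 10 kb, Gtf2ird1 had 7 ESC Oct1 and 11 ESC Oct4 peaks, the most of any member, then 1 peak at day 3 and 2 at day 6. Its gene spans 99207 bp, so it offers more room than most members. At day 6 it was the single gene of the family with gene-end peaks, at ranks 6223 and 7395. Inside Gtf2i an ESC Oct4 peak ranked 194 (score 571, percentile 99.1), 13512 bp from the nearer gene end, where an Oct1 peak ranked 4204. Day 6 peaks of Gtf2i and Gtf2ird2 lay 434 and 352 bp from annotated starts inside these genes, and the gene-end count does not hold them.

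For the polymerase III factors, 4 of 7 genes were bound. Gtf3c2, a TFIIIC subunit, ranked 5115 for ESC Oct1 (score 159) and 1092 for ESC Oct4 (score 334, percentile 95.1). It ranked 3137 at day 3 (score 136) and 1121 at day 6 (score 1211, percentile 85.5). The midpoint lay 514 bp inside the gene in the ESC Oct1 list, 98 bp inside at day 3 and 214 bp inside at day 6. Gtf3a, which is TFIIIA and binds 5S genes, led those bound at day 6 alone with rank 1792, followed by Gtf3c1 (rank 2102), the largest TFIIIC subunit, and Gtf3c4 (rank 4940).

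All 14 genes with a day 3 gene-end peak also had one at day 6, beside 86.1% of all genes with a day 3 gene-end peak. With the higher-scoring 50% of each list it was 4 of 7 (57.1%), below the 77.9% of all genes. At 13 of the 14 the day 3 peak itself overlapped a day 6 peak, Taf6l being the exception, and the same held for 85.9% of all genes with a day 3 gene-end peak. Seen from day 6, 14 of 44 genes (31.8%) had a day 3 gene-end peak, beside 40.9%. In ESCs, 6 of the 10 Oct1 genes also had an Oct4 gene-end peak (60.0%, beside 58.7%), which is 46.2% of the 13 Oct4 genes, beside 56.2%. These ESC shares are near those of all genes. Of the ESC Oct1 genes, 3 were bound again at day 3, beside 36.9%, and 8 at day 6, beside 42.8%. Of the 11 ESC Oct1 gene-end peaks at the 10 genes, 7 overlapped an Oct4 peak (beside 55.9% of all ESC Oct1 gene-end peaks), 2 a day 3 peak (at Polr3b and Gtf3c2, beside 27.9%) and 5 a day 6 peak (beside 28.5%).

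Where they were bound, the members did not stand high in the lists as a group. In the ESC Oct1 list their median percentile was 55.6 (range 15.4 to 97.4), against 72.9 for all genes with a gene-end peak, and Polr3b was the single member in the highest 10% of scores, where 25.9% of all these genes lay. In the ESC Oct4 list the median was 62.3 (15.5 to 98.4) against 59.1, with Polr3b and Gtf3c2 in the highest 10% (16.2% of all these genes). At day 3 it was 50.1 (25.9 to 90.1) against 61.4, with Gtf2a1 in the highest 10% (12.1% of all). At day 6 it was 57.9 (12.6 to 96.1) against 58.3, with Taf4, Gtf2h1, Polr2e and Gtf2h5 in the highest 10% (12.0% of all).

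Day 6 percentiles are given by complex. The 10 genes with symbols starting Polr1 or Polr3 lay between percentiles 12.6 and 47.1, with a median of 39.5 and none in the upper 50% of the list. The 34 others lay between 19.2 and 96.1, with a median of 66.4. Of them, 26 were in the upper 50%, where 59.0% of all genes with a day 6 gene-end peak lay. Those others include subunits shared by all the polymerases, which were grouped by symbol with polymerase II. They were Polr2e (93.4), Polr2k (83.5), Polr2h (78.6) and Polr2f (53.6). Medians were 39.2 for polymerase III (7 genes), 64.0 for polymerase II (8), 57.8 for the TFIID and SAGA TAFs (11), 59.0 for TFIIE and TFIIF (4), 83.5 for TFIIH (4) and 74.9 for TFIIIA and TFIIIC (4). Of the polymerase III factors, Gtf3c4 at 36.3 lay within the range of the genes starting Polr3 and the other 3 lay above it. This grouping was made after the values were seen, the groups overlap, and no test was applied.

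**Figure D3:**
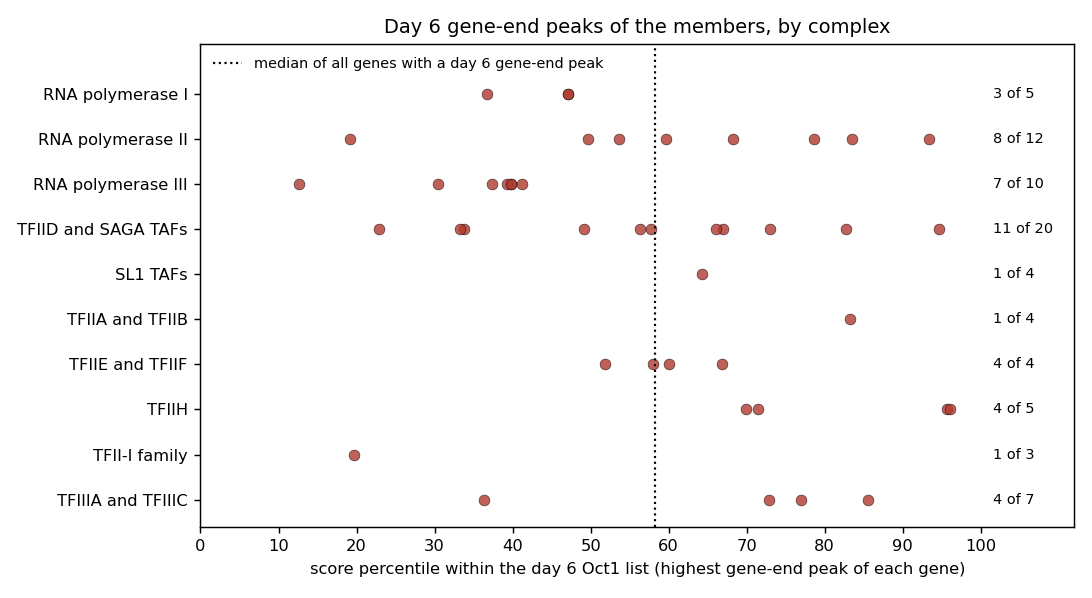
Score percentile within the day 6 Oct1 list (horizontal axis) of the highest gene-end peak of each bound gene, by complex. Each point is a gene, numbers at the right give bound genes of all genes in the complex, and the dotted line is the median of all genes with a day 6 gene-end peak, 58.3. All points of genes starting Polr1 or Polr3 lie left of the line and all TFIIH points right of it. Subunits shared by all the polymerases are plotted with polymerase II.

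Starts were known for 67 of the 77 genes. At day 6, 37 of 39 gene-end peaks with a known start (94.9%) were within 1 kb of it, beside 91.5% over all genes, with a median distance of 98 bp beside 97 bp. Of the members' peaks, 35 were within 300 bp. At day 3, 12 of 13 (92.3%, beside 89.5%) were within 1 kb, with a median of 152 bp beside 137 bp. In ESCs it was 6 of 10 Oct1 peaks (60.0%, beside 61.9%) and 6 of 12 Oct4 peaks (beside 44.8%), with medians of 372 bp beside 400 bp and 1869 bp beside 3472 bp. These shares are near those of all genes in the same list. Counted at starts alone, the genes bound were 6 for ESC Oct1 (8.96%, beside 6.78% of the 17492 genes with an entry) and 6 for ESC Oct4 (8.96%, beside 5.49%). The same count was 14 at day 3 (20.9%, beside 14.8%) and 39 at day 6 (58.2%, beside 31.8%).

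**Figure D4:**
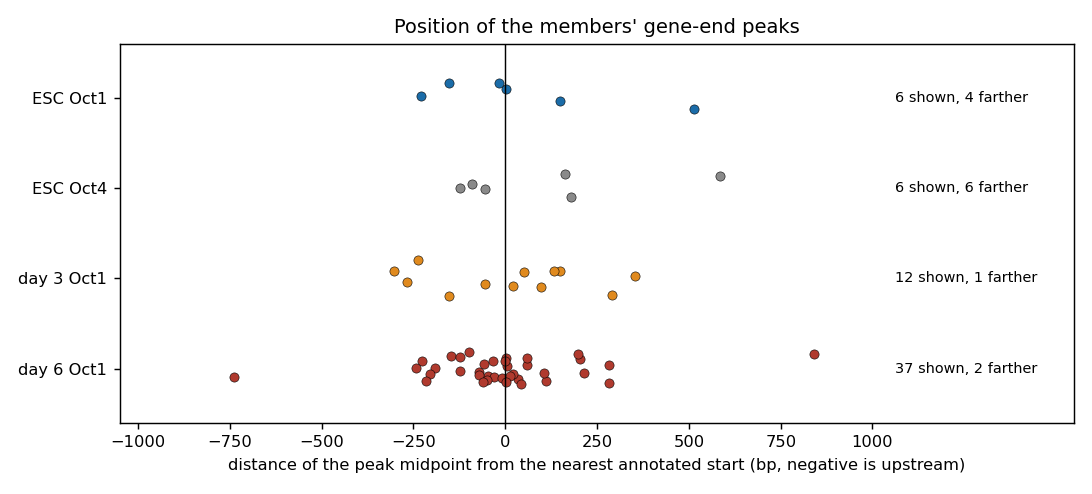
Distance of the midpoint of each member's gene-end peak from the nearest annotated start (horizontal axis, bp, negative is upstream) in the 4 lists. Each point is a peak, the vertical spread within a list only separates points, and the text at the right counts peaks shown and those farther than 1 kb. Day 6 peaks gather at the start, with 35 within 300 bp.

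Many of these peaks serve more than 1 gene end. At day 6, 21 of the members' 46 gene-end peaks (45.7%) were also within 1 kb of an end of another protein-coding gene, beside 32.0% over all genes, where a peak counts once for each gene it is assigned to. At day 3 the count was 6 of 14 (42.9%, beside 32.7%), in ESCs 3 of 11 for Oct1 (27.3%, beside 25.1%) and 2 of 14 for Oct4 (14.3%, beside 22.6%). Such pairs include Gtf2h5 with Serac1, Gtf2h1 with Hps5 and Gtf2e1 with Rabl3, and the lists cannot assign such a peak to either gene. Among the 42 members that share no end with a neighbour, 20 (47.6%) had a day 6 gene-end peak, beside 22.5% of all such genes.

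The octamer letters ATGCAAAT were in the promoter window of 0 of the 67 members, beside 1.90% of all 17492 promoter windows, both strands searched. Among all genes with a peak within 1 kb of a start, the share was 6.91% for ESC Oct1, 3.12% for ESC Oct4, 4.05% for day 3 and 1.80% for day 6. The shorter ATGCAAA was in 1 member, Taf7l, a gene with no nearby peak (4.83% of all), and the palindrome known as the MORE element was in none (0.0515% of all). The window covers 300 bases, so it says nothing of octamers elsewhere under a peak. Other letters were searched after the data were seen. GGGCGG was in 45 members (67.2%, beside 49.2% of all) and CCGGAA in 35 (52.2%, beside 20.9%), while CCAAT was in 21 (31.3%, beside 42.3%) and TATAAA in 9 (13.4%, beside 14.8%). Of the 39 members with a day 6 peak at a start, 28 held GGGCGG, a lower share than the 81.4% of all genes with such a peak. CCGGAA was held by 22 of the 39, a higher share than the 34.6% of all genes with such a peak.

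The promoters of these genes are rich in CpG, and day 6 peaks of all genes were more frequent at such promoters. The median number of CpG dinucleotides in the window was 24 for the members and 15 for all genes. Members with a day 6 gene-end peak had a median of 25 (37 genes) and those without one 18.5 (30 genes). In windows with 25 or more CpGs, 19 of 27 members (70.4%) and 60.6% of all genes had a day 6 gene-end peak. With 20 to 24 CpGs it was 11 of 16 members (68.8%) and 49.8% of all, and with 15 to 19 it was 3 of 14 (21.4%) and 37.4%. Weighting all genes to the members' CpG classes moved the day 6 background from 30.2% to 46.3%, beside 55.2% of the 67 members. At day 3 the background moved from 14.4% to 21.5%, beside 19.4% of the members. At day 6 the members thus stayed above the weighted background, by less than above the unweighted one, and at day 3 they were below it. For ESC Oct1 the weighted share was 9.41%, beside 13.4% of the members, and for ESC Oct4 9.50%, beside 16.4%. The weighting was chosen after the data were seen, and its part in the result was not tested.

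**Figure D5:**
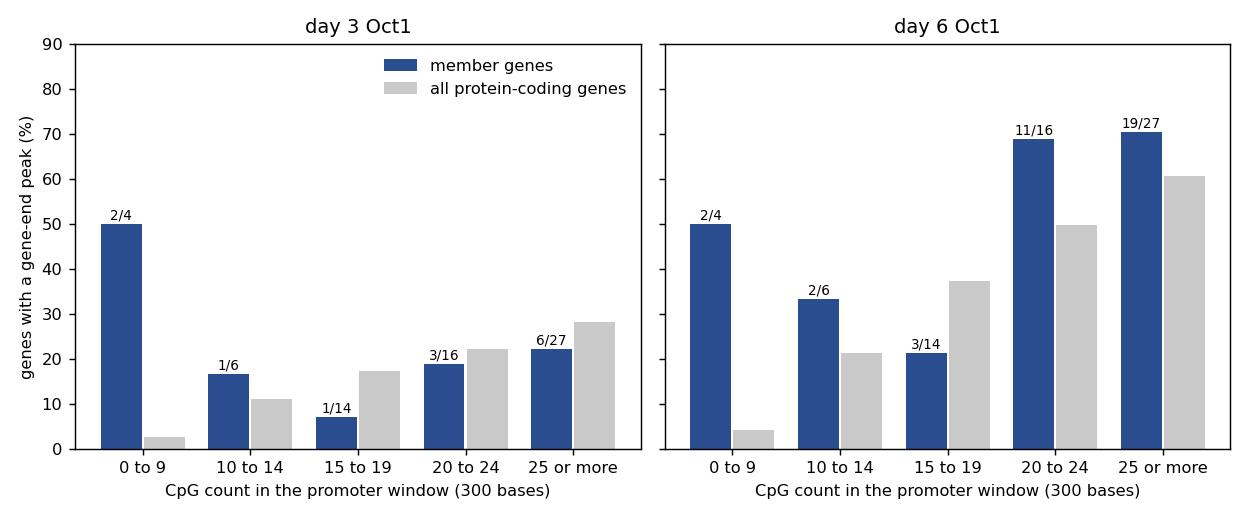
Percent of genes with a gene-end peak (vertical axis) at day 3 (left) and day 6 (right) by the number of CpG dinucleotides in the 300-base promoter window (horizontal axis), for the 67 members with a window and all 17492 genes with one. Numbers above the bars give members with a peak of members in the class. At day 6 the share of all genes climbs from 4.19% in the lowest class to 60.6% in the highest. The lowest class holds 4 members.

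The members bound in the lowest CpG class were Polr1d, with 7 CpGs, and Gtf2h4, with 8. The Gtf2h4 peak lay at the Vars2 end and not at that window. The Polr1d peak at day 3 and the higher of its day 6 peaks overlapped the window, centred 290 and 204 bp past the annotated start. The other day 6 peak (rank 6869) was centred 740 bp before the start and did not. By complex, the median was 13 CpGs for polymerase I (range 7 to 40), 25 for polymerase III (range 12 to 33) and 32 for TFIIH (range 8 to 39). The polymerase I and TFIIH ranges, of 5 genes each, nearly coincide through Polr1c (40) and Gtf2h4 (8). The other polymerase I genes held 15 or fewer and the other TFIIH genes 25 or more.

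Some of the highest-ranked peaks near members were not at their ends. About 4 kb before Taf12 (3969 bp from the nearer end), an ESC Oct1 peak at chr4:132269971-132270800 ranked 47 (score 8028, percentile 99.7). It overlaps Rnu11, the gene of the U11 small nuclear RNA of the minor spliceosome, at chr4:132270079-132270186. The same site ranked 92 at day 3 (score 2285, percentile 98.1) and 15754 in the ESC Oct4 list, and no day 6 peak overlapped it. The day 6 peak of Taf12 was instead at its own start, at rank 2555. Taf12 also held an ESC Oct1 peak at rank 447 inside the gene, 1218 bp from its far end. Near Polr2g, an ESC Oct1 peak at rank 612 lay in the neighbour Zbtb3, 4108 bp away, and overlapped peaks in the other 3 lists. Gtf3c5, a TFIIIC subunit, had 4 ESC Oct1 and 3 ESC Oct4 peaks nearby, and no peak at day 3 or day 6.

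A list of 67 other genes of transcription initiation gave a similar share at day 6. It held Mediator, the TFIIH enzymes, TFIIIB, SNAPc, elongation factors and the polymerase I subunits Twistnb, Cd3eap and Znrd1, among others. Gene-end peaks were found at 4 of them for ESC Oct1 (5.97%, beside 8.52% of all genes), 5 for ESC Oct4 (7.46%, beside 8.91%), 17 at day 3 (25.4%, beside 14.0%) and 38 at day 6 (56.7%, beside 29.4%). These included higher Oct1 gene-end ranks than any of the members had. Ercc2, a helicase of TFIIH, ranked 82 for ESC Oct1, 53 at day 3 and 34 at day 6 (score 4945, percentile 99.6) and had no Oct4 gene-end peak. Med16, a Mediator subunit, ranked 592, 214 and 44 in the same order, likewise without Oct4. The other TFIIH helicase, Ercc3, ranked 1988 for ESC Oct1 and 740 for ESC Oct4, and Med20 had a peak in all 4 lists, at ranks 7909 for ESC Oct1, 8767 for ESC Oct4, 3156 at day 3 and 1997 at day 6. Oct4 gene-end peaks without ESC Oct1 were at Med24, Nelfcd and Supt5. The remaining day 3 genes were Brf1, the TFIIIB subunit, at rank 1178, Med29 at rank 750, the SNAPc genes Snapc2 and Snapc5, the elongation factor genes Cdk9, Nelfa, Supt4a, Supt5 and Tcea3, and Drap1, Med9, Med11, Med22 and Med31.

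Med16 was the single gene of this list, of 54 with a promoter window, to hold the octamer letters, beside 1.90% of all promoter windows. Its window is printed as an example of one with the octamer (chr10:79908889-79909188, minus strand, RefSeq, GRCm38.p6), with the octamer and TATAAA in capitals.
Med16: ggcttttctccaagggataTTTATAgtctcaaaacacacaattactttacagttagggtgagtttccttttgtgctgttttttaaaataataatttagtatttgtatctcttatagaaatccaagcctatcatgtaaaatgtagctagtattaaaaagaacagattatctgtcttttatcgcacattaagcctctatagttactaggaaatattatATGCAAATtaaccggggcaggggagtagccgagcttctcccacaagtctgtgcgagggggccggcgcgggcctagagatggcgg
It holds 8 CpGs, against 32 in the window of Gtf2h5 and 12 in that of Polr3b. The ESC Oct1 peak covered 212 of the 300 bases of the Med16 window. This gene and Gtf2h5 were chosen for printing after their values were seen.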

How the data were processed

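Per the labels, chromatin was crosslinked with 1% formaldehyde and sequenced as paired reads of 50 bp, with 100 M read pairs stated. The submitters' processing notes name mm10 and Novoalign 3.8.2, and the peak caller, its threshold and its control are not given in the sources used here. The authors deposited 1 list of 5 columns per ChIP library, with a whole-number score per peak and no read counts, so the depth behind each peak is unknown. Scores were used as ranks within a list. Other arms of the study were not analysed here.

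Genes, promoter windows and names came from RefSeq tables of GRCm38.p6, the same build as mm10. Windows matched 67 of 77 members. Positions are 1-based. No exon table was used, so peaks are not assigned to exons or introns. Overlap was at least 1 bp. Counting used Python 3.11.15, numpy 2.4.6, pandas 2.3.3 and matplotlib 3.10.9, and was checked on simulated data.

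The members and lists were chosen with earlier results of these data known. Genes named were all members with a gene-end peak in an ESC list or at day 3, the highest of each complex at day 6 alone, members without nearby peaks, and related genes bound in ESCs or at day 3. Others named were chosen after their values were seen. Alternatives were the distance, peaks of higher score, equal list lengths, starts alone, any overlapping base and genes sharing no end. With 1 library per group, no test was made. Some results for 1 member are not reported here.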

Additional observations from a re-analysis of the deposited data

How the results depend on the processing

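Of 52 alternative values for the list counts, 31 were within 1.5 times the reported count. With the higher-scoring 50% of each list, gene-end counts were 6 for ESC Oct1 (7.79%, beside 6.11% of all genes), 7 for ESC Oct4 (9.09%, beside 4.99%), 7 at day 3 (9.09%, beside 9.17%) and 26 at day 6 (33.8%, beside 17.4%). Those within 10 kb were 14 for ESC Oct1 (18.2%, beside 24.3%), 11 at day 3 (14.3%, beside 15.0%) and 31 at day 6 (40.3%, beside 25.0%). That setting left 4 of 7 day 3 genes with a day 6 peak (57.1%, beside 77.9% of all genes). With every list shortened to 4867 peaks, gene-end counts were 3 for ESC Oct1 (3.90%, beside 4.31%) and 4 for ESC Oct4 (5.19%, beside 2.44%), and counts within 10 kb were 10 (13.0%, beside 16.3%) and 11 (14.3%, beside 14.7%). The members' share was thus below that of all genes for ESC Oct1 and at day 3 under some of these settings, and for ESC Oct4 within 10 kb, where the reported share was above it. Fewer peaks enter both settings by construction. Starts alone gave 6 of 67 for each ESC list (8.96%, beside 6.78% for Oct1 and 5.49% for Oct4). Of the 42 members sharing no end, 6 had a peak for ESC Oct1 (14.3%, beside 7.16% of all such genes), 5 for ESC Oct4 (11.9%, beside 7.59%), 6 at day 3 (14.3%, beside 10.5%) and 20 at day 6 (47.6%, beside 22.5%). For ESC Oct4, a distance of 500 bp gave 8 (10.4%, beside 5.25%) and one of 5 kb gave 25 (32.5%, beside 23.2%). The letters ATGCAAA in place of ATGCAAAT gave 1 member. The cause was not tested. The day 6 gene-end count was 44 at 500 bp (57.1%, beside 27.0%), 47 at 2 kb (61.0%, beside 31.8%), 50 at 5 kb (64.9%, beside 35.4%) and 35 in lists of equal length (45.5%, beside 21.3%). Of 88 alternative values for single complexes at day 6, 70 were within 1.5 times. With the higher-scoring 50% the counts of genes starting Polr1 or Polr3 fell to 0. No paired analysis was possible because each group held 1 library. The depth of the libraries is unknown, so a missing peak does not show that a gene was unbound.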
